A study of Homo sapiens with 9 samples.

Results

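Short focal H3K9me3 domains are stretches of at most 5 kb in which H3K9me3 reads stood far above the input reads. They were taken from 8 domain lists of a Cut&Run study in hTERT RPE-1, a cell line of human retinal pigment epithelium made immortal by telomerase. In each list, autosomal domains of at most 5 kb with at least 10 input reads were kept, and a domain counted as focal when its ratio of H3K9me3 to input reads was at least 2 times the pooled ratio of the whole list. This gave 336 focal domains among the 60138 listed domains, and 7005 other short domains passed the same limits on length and input reads without reaching that ratio. Overlapping focal domains of different lists merged into 273 loci.

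The LmnB1 cells stably overexpressed an mCherry fusion of lamin B1 and the mCherry cells overexpressed mCherry alone. Both were treated with doxycycline at 0.05 ug/mL for 24 hours and grown in medium with hygromycin B. The clonal lines were LmnB1_16 and LmnB1_6 for the fusion and mCherry_3 and mCherry_4 for mCherry, each with biological replicates 1 and 2. Each construct thus rests on 2 clones. A further sample, 1 input of the wild-type line, was not used on its own. H3K9me3 was captured with the antibody ab8898.

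H3K9me3 is a histone mark of compact, mostly silent chromatin. Outside the large heterochromatin blocks it is laid down at single elements by SETDB1, a methyltransferase that TRIM28 brings to DNA through KRAB zinc finger proteins. In human cells the mark is known to coat the zinc finger genes themselves, above all towards their 3′ ends, and to lie over many transposable elements and some imprinted genes. Lamin B1 is a filament protein of the nuclear lamina, where much H3K9me3 chromatin is anchored.

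A promoter inside a recurrent locus is shown first, since no focal domain covered a protein-coding gene start of known strand. It is the RefSeq promoter (250 bases before to 50 after the gene's start, GRCh38.p14) of a long noncoding RNA, with any CG dinucleotide in capitals.
LOC124907755, chr2:43175526-43175825, minus strand: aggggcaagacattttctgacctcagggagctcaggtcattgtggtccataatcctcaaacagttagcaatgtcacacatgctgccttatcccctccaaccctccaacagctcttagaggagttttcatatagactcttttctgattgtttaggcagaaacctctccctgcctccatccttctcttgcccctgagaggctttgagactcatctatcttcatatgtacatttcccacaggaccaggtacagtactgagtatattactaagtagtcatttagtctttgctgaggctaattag
It held 0 CG dinucleotides and 44.7% G and C. Across 35116 promoters of the same length the median was 14 CG dinucleotides and 58.7% G and C, and 0% had fewer CG dinucleotides than this one. The hexamer TATAAA, searched on both strands, was not in it and was in 11.5% of all promoters. The locus around it is described below with the recurrent loci.

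Depth and list length differed between the libraries. The lists held 5366 to 11322 domains with LmnB1 and 6060 to 8579 with mCherry. Depth relative to input, solved from the authors' log2 values and counts, was 0.880 to 1.007 in the LmnB1 libraries and 0.421 to 0.859 in the mCherry libraries. Every LmnB1 library was therefore deeper than every mCherry library, and the effects of depth and construct cannot be told apart. The pooled ratio of H3K9me3 to input reads ran from 1.48 to 1.95 with LmnB1 and from 0.761 (mCherry_4 replicate 1) to 1.52 with mCherry, so the ratio a domain needed was list-specific. In the mCherry_3 pair, counts over 229 domains with identical coordinates differed by no more than sampling noise could give (chi-square over degrees of freedom 1.08, p = 0.197). In LmnB1_16 the value was nearly the same, 1.10 over 648 domains (chi-square p = 0.0380). It was 1.73 over 61 domains in LmnB1_6 and 1.67 over 28 in mCherry_4 (chi-square p = 0.000368 and 0.0162). The p-values depend on the number of domains, so the mCherry_3 pair is not shown to be more alike than the LmnB1_16 pair. Only domains with identical coordinates in both replicates entered, so the values do not cover places where the lists differ. The mCherry_3 lists were not the same, and with both counted as 1 sample no comparison of constructs changed its call.

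Focal domains were mostly found in the LmnB1_16 lists. LmnB1_16 replicate 1 held 140 focal domains and replicate 2 held 59. LmnB1_6 held 50 in replicate 1 and 3 in replicate 2. The mCherry lists held 37 and 32 in mCherry_3 replicates 1 and 2, and 11 and 4 in mCherry_4 replicates 1 and 2. The LmnB1 and mCherry libraries overlapped, and LmnB1_6 replicate 2 had the fewest of all 8. The mean was 63.0 ± 56.9 focal domains with LmnB1 and 21.0 ± 16 with mCherry (SD, n = 4 each), and the difference of 42 did not pass the test (exact two-sided permutation p = 0.2, adjusted over 4 values 0.4). With the mCherry_3 replicates as 1 sample the difference was 46.5 (exact permutation p = 0.229, adjusted 0.457). Without LmnB1_16 replicate 1 it was 16.3.

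The number of focal domains went with the number of short domains. Short domains with at least 10 input reads numbered 3287 and 1324 in LmnB1_16 and 1550 and 66 in LmnB1_6, against 477 and 418 in mCherry_3 and 86 and 133 in mCherry_4. Focal domains made up 4.26% and 4.46% of these in LmnB1_16 and 3.23% and 4.55% in LmnB1_6. They made up 7.76% and 7.66% in mCherry_3 and 12.8% and 3.01% in mCherry_4. The LmnB1 shares lay close together and the mCherry shares were spread above and below them. The mean share was 4.12 ± 0.609% with LmnB1 and 7.80 ± 4.0% with mCherry (SD, n = 4 each), and the difference of -3.68 points did not pass (exact two-sided permutation p = 0.143, adjusted 0.4). The test counts both replicates of a clone as separate samples. Over 70 assignments of libraries the smallest possible p is 0.0286, and over the 6 assignments of whole clones it is 0.333.

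**Figure D1:**
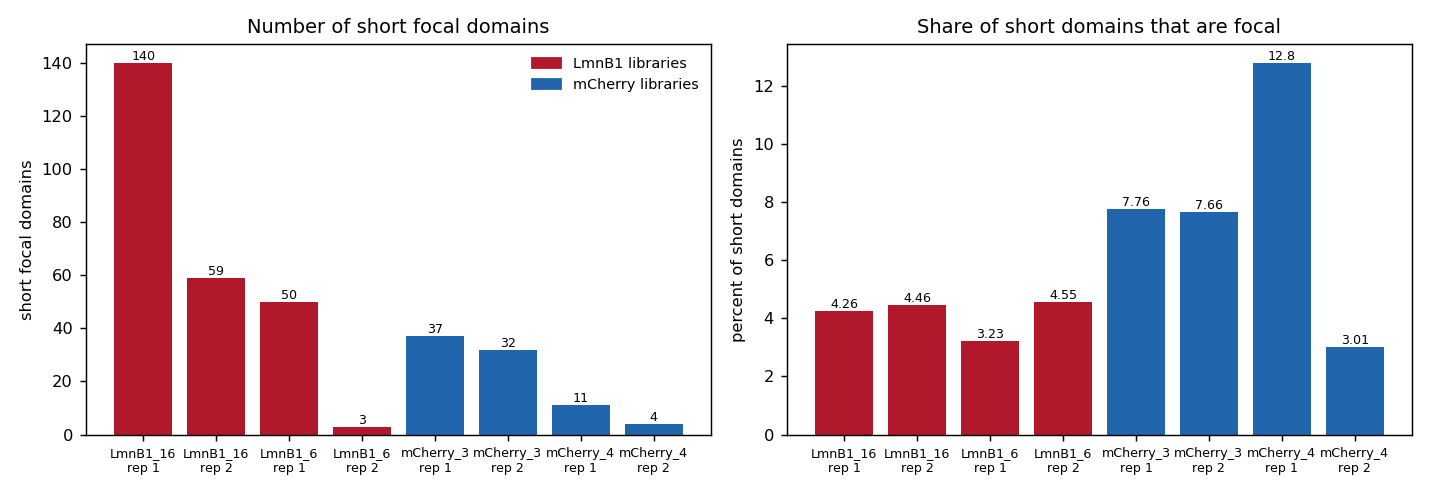
Left, number of short focal domains in each library, and right, the same as percent of all short domains with at least 10 input reads. Red bars are the 4 LmnB1 libraries and blue bars the 4 mCherry libraries, each bar being 1 library; LmnB1_16 replicate 1 stands highest on the left at 140 and mCherry_4 replicate 1 highest on the right at 12.8%.

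The ratio that chose the focal domains rests on small counts. The members nearest the threshold had 2.00 to 2.23 times their list's ratio and the nearest short domains below it had 1.91 to 1.99 times. The median member held 86 H3K9me3 reads (40 to 249) over 21 input reads (10 to 85) and had 2.23 times the ratio of its list. The median 95% interval of that relative ratio was 1.39 to 3.83 (Clopper-Pearson, counting error only), and in 4 of 336 domains its lower limit was 2 or more. In all 336 the lower limit was above 1, which is a description, since the rule chose the domains for a high ratio. The intervals do not allow for that choice. Input reads numbered under 20 in 139 of the 336. By length, 5 focal domains spanned 1 kb, 65 spanned 2 kb, 121 spanned 3 kb, 92 spanned 4 kb and 53 spanned 5 kb.

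Both parts of the ratio are shown here as a description, since the rule used them. In LmnB1_16 replicate 1 the median focal domain had 27.8 H3K9me3 reads and 6.45 input reads per kb, and the median other short domain had 21.5 and 9.2. In mCherry_3 replicate 1 the focal medians were 26.5 and 7.5 reads per kb, and those of the other short domains were 19 and 9.25. Across the 8 libraries the focal medians of input reads per kb ran from 5.82 to 8.67 and the medians of other short domains from 9.2 to 11.25. Focal domains thus had fewer input reads per kb as well as more H3K9me3 reads per kb than other short domains. The part of low input in the ratio was not tested.

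Most focal domains lay away from gene ends, in gene bodies or between genes. Of the 336, 134 (39.9%) overlapped the body of a protein-coding gene, and 2527 of the 7005 other short domains (36.1%) did. By library, 44.3% and 40.7% of focal domains were in gene bodies in LmnB1_16 and 36% and 0% in LmnB1_6, against 45.9% and 34.4% in mCherry_3 and 9.09% and 25.0% in mCherry_4. The low shares came from the lists with 3, 11 and 4 focal domains. Of the 273 loci, 106 touched a protein-coding gene, 48 touched noncoding genes or pseudogenes only and 119 touched no annotated gene. The 106 loci named 105 different protein-coding genes, and 2 genes held 2 loci each, ABHD2, a hydrolase gene, and FREM3, an extracellular matrix gene. The gene table gives gene starts and ends but no exons, so exon and intron were not told apart.

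No focal domain covered the annotated 5′ start of a protein-coding gene whose strand was known. The count was 0 of 336, which allows a share of up to 0.893%, and it was 22 among 7005 other short domains. With so low a share among other short domains, 0 of 336 does not set focal domains apart. Either end of a protein-coding gene was covered by 7 of 336 focal domains (2.08%) and by 112 of 7005 other short domains (1.60%). By library, focal domains over a gene end made up 2.14% and 3.39% in LmnB1_16 and 0% in both LmnB1_6 replicates, against 5.41% and 0% in mCherry_3 and 0% in both mCherry_4 replicates. Within libraries, focal minus other short domains averaged -0.408 points, with 3 libraries above 0 and 5 below (exact two-sided sign-flip permutation p = 0.641, adjusted over 4 comparisons 1). Between constructs the share averaged 1.38 ± 1.68% with LmnB1 and 1.35 ± 2.70% with mCherry (SD, n = 4 each, exact permutation p = 1). The p-values miss the threshold, and with so few members at gene ends they do not show that the shares are alike.

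Of the 7 domains over a gene end, 6 covered a known 3′ end. Other short domains of the same libraries also covered known 3′ ends at least as often as known 5′ starts. The counts were 20 and 11 in LmnB1_16 replicate 1, 15 and 3 in LmnB1_16 replicate 2, and 2 and 2 in mCherry_3 replicate 1. GPR35, a G protein-coupled receptor gene, was covered at its 3′ end in both LmnB1_16 replicates (chromosome 2, 240632001 to 240636000), with 143 H3K9me3 reads over 32 input reads in replicate 1 and 134 over 32 in replicate 2. These were 2.31 and 2.15 times the ratio of their lists. The 3′ ends of ACOD1, which makes itaconate in activated macrophages, and ZSCAN2 were covered in LmnB1_16 replicate 1, and that of DACT3, a Wnt antagonist, in LmnB1_16 replicate 2. In mCherry_3 replicate 1 the domains lay over the 3′ end of ATP8B3, a phospholipid flippase gene, and over an end of MSI1, an RNA-binding protein gene whose strand is not in the tables used. Each of these other 5 had 2.10 to 2.36 times the ratio of its list.

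Few focal domains touched a zinc finger gene, a known home of H3K9me3, and few other short domains did. A set of 571 genes was defined by symbol (ZNF, ZFP, ZSCAN or ZKSCAN with a number, and a few named relatives). Of 336 focal domains 2 touched such a gene (0.595%), against 59 of 7005 other short domains (0.842%). Both were in LmnB1_16 replicate 1, which gives 1.43% there and 0% in the other 7 libraries. The count outside that library was 0 of 196, which allows a share of up to 1.53%. Among other short domains the share was 0.667% and 0.791% in LmnB1_16 and 1.00% and 1.59% in LmnB1_6, and 0.909% and 1.04% in mCherry_3 and 0% and 3.10% in mCherry_4. Within libraries, focal minus other short domains averaged -0.958 points, below 0 in 6 libraries and above 0 in 1, and did not pass after adjustment (exact two-sided sign-flip permutation p = 0.0312, adjusted 0.125). In those 6 libraries the focal share was 0%, so each difference there is the share of other short domains with a minus sign. With so few focal domains and so low a share, a count of 0 is likely. The test therefore cannot show that focal domains avoid these genes. The construct means of the focal share were 0.357 ± 0.714% with LmnB1 and 0 with mCherry (n = 4 each, exact permutation p = 1).

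The 2 domains on zinc finger genes were both on chromosome 15. The domain in ZNF609, a zinc finger gene with a known circular RNA product, ran from 64579001 to 64583000 and held 136 H3K9me3 reads over 35 input reads in LmnB1_16 replicate 1, 2.00 times the list ratio (95% interval 1.37 to 3.0). At that place LmnB1_16 replicate 2 listed a 6 kb domain at 1.39 times and LmnB1_6 replicate 1 a 3 kb domain at 1.74 times, while LmnB1_6 replicate 2 and all mCherry lists had no domain. The domain over the 3′ end of ZSCAN2 ran from 84619001 to 84624000 and held 179 reads over 41 (2.25 times, 1.60 to 3.25). It was listed in all 4 LmnB1 libraries, at 1.26 to 1.62 times outside LmnB1_16 replicate 1, and in both mCherry_3 replicates at 1.10 and 1.45 times, so it was focal in 1 of the 6 lists that held it. Of zinc finger genes, 0 had a focal domain over the 5′ start and 1 over the 3′ end, a mean difference of 0.0893 points that rests on 1 library and cannot pass a sign-flip test.

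The same lists did cover zinc finger genes, in longer domains. Domains of any length touched 361 and 352 of 558 autosomal zinc finger genes in LmnB1_16 and 328 and 247 in LmnB1_6, against 321 and 319 in mCherry_3 and 294 and 237 in mCherry_4. The lists covered 320 to 646 Mb each, and the share of all protein-coding genes they touched was not counted. These counts and the shares of bases below therefore do not show that the lists favour zinc finger genes. In domains over 10 kb, 1.78% and 1.87% of bases lay in zinc finger genes in LmnB1_16 and 1.43% and 1.68% in LmnB1_6. In mCherry_3 the values were 1.73% and 1.86%, and in mCherry_4 1.84% and 1.75%. In focal domains they were 1.85% in LmnB1_16 replicate 1 and 0% in the other 7 libraries. In other short domains they were 0.665% and 0.755% in LmnB1_16 and 0.899% and 1.92% in LmnB1_6, and 0.870% and 1.08% in mCherry_3 and 0% and 3.03% in mCherry_4, below the value of domains over 10 kb in 6 of 8 libraries. Focal domains covered 9 to 472 kb per library, so 0% rests on few bases, and the difference was not tested.

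**Figure D2:**
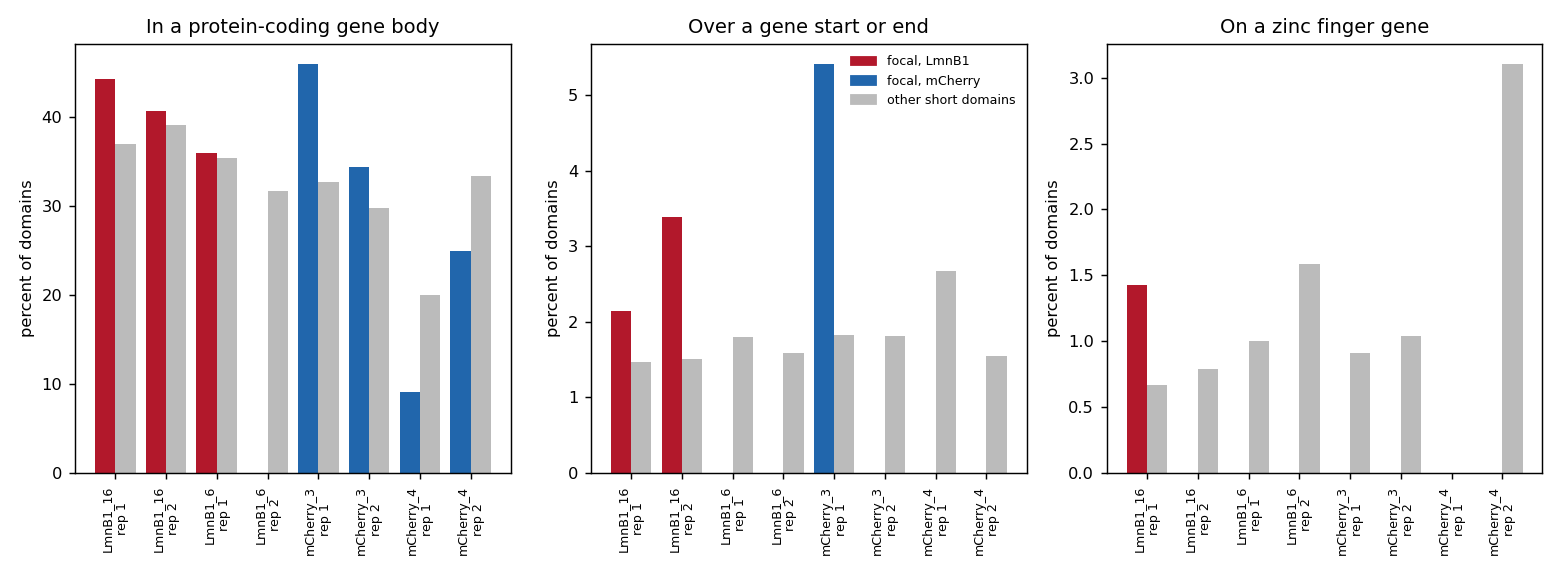
Percent of short focal domains (red for LmnB1 and blue for mCherry libraries) and of other short domains (grey) in each library that lie in a protein-coding gene body, over a gene start or end, or on a zinc finger gene. A missing coloured bar is 0%; LmnB1_16 replicate 1 has the sole coloured bar for zinc finger genes, at 1.43%.

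Other gene lists named 4 loci. Over all 20056 protein-coding genes, 105 (0.524%) overlapped a focal locus. A list of 25 genes took in writers, readers and erasers of H3K9me3 and related silencing factors such as DNA methyltransferases. Of these 25, 3 held a focal locus in the gene body. That share is above the 0.524% of all genes, but it rests on 3 genes, does not allow for gene length and was not tested. In SETDB1, the methyltransferase itself, the locus (chromosome 1, 150930001 to 150933000) held 67 H3K9me3 reads over 17 input reads in LmnB1_16 replicate 1 (2.03 times the list ratio) and was in no other list. In ATF7IP, the nuclear partner of SETDB1, the locus (chromosome 12, 14378001 to 14381000) held 77 over 15 in LmnB1_16 replicate 1 (2.65 times) and was listed at 1.23 times in LmnB1_6 replicate 1. In KDM4B, an H3K9me3 demethylase gene, the locus (chromosome 19, 5097001 to 5101000) was focal in LmnB1_16 replicate 1 (140 over 34, 2.12 times) and listed below the threshold in LmnB1_16 replicate 2, LmnB1_6 replicate 1 and mCherry_3 replicate 1, at 1.54, 1.69 and 1.47 times. All 3 were focal in LmnB1_16 replicate 1 alone, the list with the most focal domains.

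Of 39 imprinted genes in the gene table, KCNQ1, a potassium channel gene in an imprinted cluster, held a focal locus (chromosome 11, 2809001 to 2811000). There LmnB1_16 replicate 1 had 64 H3K9me3 reads over 13 input reads (2.54 times the list ratio) and mCherry_3 replicate 1 had 55 over 13 (2.79 times). In mCherry_3 replicate 2 the same place lay in a 23 kb domain at 1.23 times, and the other 5 lists had no domain. Of 30 germline genes, another class held silent in somatic cells, 0 had a focal locus, and at the share over all genes a list of this size would seldom hold any.

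Most loci were focal in a single library but listed in several. Of the 273 loci, 221 were focal in 1 library, 43 in 2, 7 in 3 and 2 in 4, so 52 (19%) were focal in at least 2. Of these 52, 40 were shared by different clones and 12 by the replicates of 1 clone. Loci focal with LmnB1 alone numbered 196 and with mCherry alone 56, and 21 were focal with both. Of all 4881 short-domain loci, 3951 came from LmnB1 lists alone, 338 from mCherry lists alone and 592 from both. Counted as listed when at least 50% covered by a domain of any length, 44 loci were listed in 1 library, 116 in at least 4, and the median was 3 libraries. The difference between both counts came from the other libraries, where the same place was a short domain of lower ratio or part of a longer domain. Apart from loci listed in all 8 libraries, given below, the counts by number of libraries were not made for all short-domain loci. They therefore do not set focal loci apart from short domains at large.

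**Figure D3:**
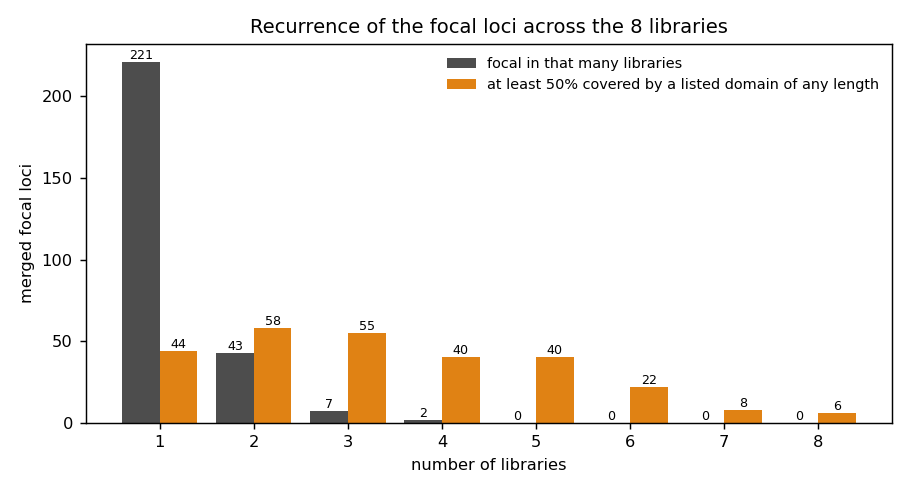
Number of merged focal loci (vertical axis) by the number of libraries (horizontal axis) in which they are focal (dark bars) or at least 50% covered by a listed domain (orange bars). In dark bars 221 of 273 loci stand at 1 library, while the orange bars spread from 44 loci at 1 library to 6 loci at 8.

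The fate of the loci in each list shows this spread. Here a locus counted as listed when any domain touched it, without the limit of 50%. In LmnB1_16 replicate 1, 140 of the 273 loci were focal, 55 were a short domain below the threshold, 47 lay in a domain of 6 to 10 kb, 17 in a domain over 10 kb and 14 were not listed. In LmnB1_6 replicate 1 there were 50 focal loci, 64 short ones below the threshold, 34 of 6 to 10 kb, 15 over 10 kb and 110 not listed. In mCherry_3 replicate 2 there were 32 focal loci, 20 short ones below the threshold, 33 of 6 to 10 kb, 34 over 10 kb and 154 not listed. LmnB1_6 replicate 2 listed 28 of the 273 loci, and mCherry_4 replicates 1 and 2 listed 26 and 22. These 3 lists also held the fewest short domains. A place outside a list may still carry reads just under the authors' threshold, so not listed does not mean unmarked.

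**Figure D4:**
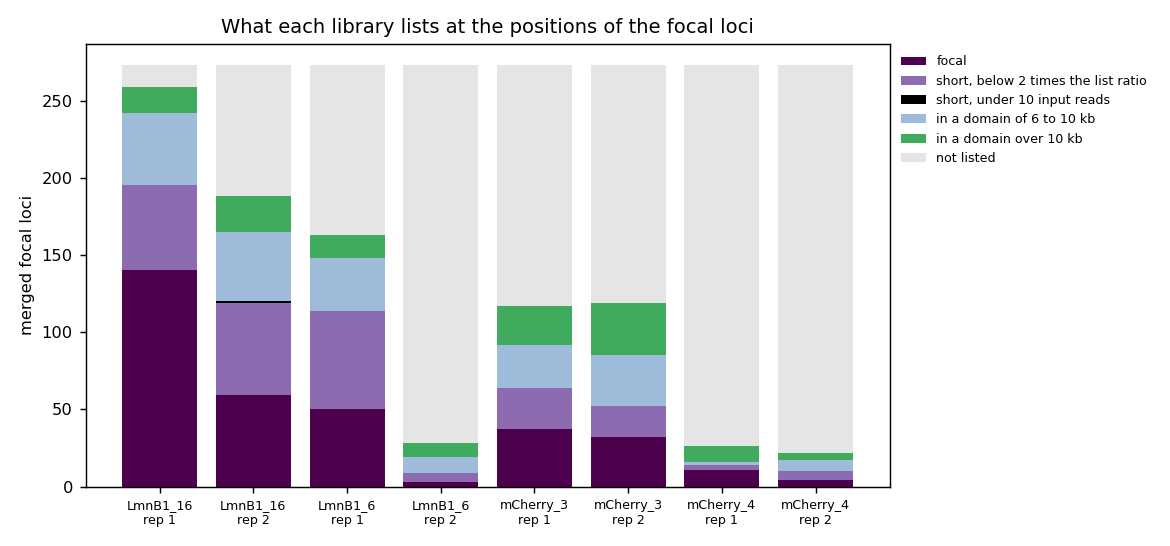
Stacked bars give, for each library on the horizontal axis, how many of the 273 merged focal loci are focal there, are a short domain of lower ratio, lie in a longer domain or are not listed. The grey part grows from 14 loci in LmnB1_16 replicate 1 to 251 in mCherry_4 replicate 2. A locus counts as listed here when any domain touches it.

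Replicates of a clone shared places to very different degrees. A domain counted as listed in the other replicate when any domain there touched it. Of the 140 focal domains of LmnB1_16 replicate 1, 85 (60.7%) were listed in replicate 2 and 12 were focal there. Of the 59 of LmnB1_16 replicate 2, 93.2% were listed in replicate 1. Of the 50 of LmnB1_6 replicate 1, 14.0% were listed in replicate 2, and all 3 of replicate 2 were listed in replicate 1. In mCherry_3, 86.5% of the focal domains of replicate 1 were listed in replicate 2 and 78.1% the other way, with 6 focal in both. In mCherry_4 the values were 36.4% and 25%. For other short domains the partner listed 39.6% and 93.6% in LmnB1_16 and 6.13% and 95.2% in LmnB1_6, and 58.2% and 59.6% in mCherry_3 and 33.3% and 41.1% in mCherry_4. The focal share was the higher one in 6 of 8 libraries and the lower one in LmnB1_16 replicate 2 and mCherry_4 replicate 2, and this was not tested. The median relative ratio of the partner's domain at a focal domain was 1.62 and 1.85 in LmnB1_16 and 1.64 and 2.05 in LmnB1_6, and 1.44 and 1.73 in mCherry_3 and 1.30 and 1.29 in mCherry_4. At other short domains it was 1.06 to 1.23 in all 8 libraries. All lists share the same input counts, so a low input count raises the ratio in every list at once. Its part in this was not tested.

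Some focal domains had a domain with identical coordinates in another list. There were 110 such pairs of domains, involving 99 focal domains, and the input counts were equal in all 110. In 29 pairs (26.4%) both domains were focal and in 81 only one was, with a relative ratio in the other list of 1.28 or more. Since the rule picked at least 1 domain of each pair for its ratio, these counts are a description.

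Listing in other libraries did not differ between focal and other short domains beyond the spread. A focal domain was touched by a domain of 1.79 and 2.54 other lists on average in LmnB1_16 and 2.6 and 4.33 in LmnB1_6, against 1.19 and 2.34, and 2.49 and 5.37, for other short domains. In mCherry_3 the focal means were 3.57 and 3.28, and those of other short domains 3.06 and 3.21. In mCherry_4 they were 4.18 and 5.25, against 4.79 and 5.15. Focal domains were higher in 6 of 8 libraries, yet the mean difference was -0.00397 lists (exact two-sided sign-flip permutation p = 0.992). They were lower in LmnB1_6 replicate 2, with 3 focal domains, and in mCherry_4 replicate 1, with 11. The mean gives each library the same weight, so these short lists count as much as the list with 140. At a threshold of 1.5 times the list ratio, which takes in 1894 domains, the difference was 0.471 lists and was above 0 in 8 of 8 libraries (exact permutation p = 0.00781, adjusted 0.0312). All lists share the same input counts, so listing elsewhere is not independent of the ratio that chose the domains. The part of input in this difference was not tested.

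Few loci divided the constructs. Of 273 loci, 3 were at least 50% covered in all 4 LmnB1 libraries and at most 10% covered in all 4 mCherry libraries, where 0.799% of all 4881 short-domain loci met the same rule. In the other direction the count was 0, and 0% among all short-domain loci. Loci listed in all 8 libraries numbered 6 of 273, against 47 of all 4881 short-domain loci (0.963%). The focal share was the higher one, and this was not tested. The count of 3 among 273 is near that background of 39 among 4881, and depth was higher in each LmnB1 library. Without LmnB1_6 replicate 2, the shortest list, the count was 37 of 272 loci (13.6%), against 11.8% of all 4867 short-domain loci.

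The 3 loci listed with LmnB1 alone lay outside protein-coding genes. The first, near FOXB1, a forkhead factor gene (chromosome 15, 60049001 to 60051000), was focal in LmnB1_6 replicate 1 with 55 H3K9me3 reads over 13 input reads. It was a 5 kb and an 8 kb domain at 1.55 and 1.34 times the list ratio in LmnB1_16, and lay in a 14 kb domain at 1.06 times in LmnB1_6 replicate 2. The second (chromosome 4, 104096001 to 104101000; CXXC4, a Wnt inhibitor gene, is 367 kb away) was focal in LmnB1_16 replicate 1 with 167 over 39, and was part of a 335 kb domain in LmnB1_6 replicate 1. The third (chromosome 4, 179261001 to 179266000) was focal in LmnB1_16 replicate 2 with 116 over 24 and in LmnB1_6 replicate 1 with 130 over 35, and its nearest protein-coding gene, AGA, is 1819 kb away. At each of these places the ratio in the other LmnB1 lists was 0.99 to 1.55 times that of the list.

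The 6 loci listed in all 8 libraries were each focal in 1. They lay in MUC19, a gel-forming mucin gene (chromosome 12, 40484001 to 40489000), and near IFI6, PKP1, KRTAP4-9, MILR1 and SMIM21. They are outside the rule for naming loci and are named because they are few. Those in MUC19 and near IFI6, KRTAP4-9 and MILR1 were focal in an mCherry list, and those near PKP1 and SMIM21 in an LmnB1 list. KRTAP4-9 is a member of the keratin-associated protein cluster, whose close copies make read placement uncertain.

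Of the 2 loci focal in 4 libraries, one lay 44.4 kb from ZFP36L2, an RNA-binding gene that promotes mRNA decay (chromosome 2, 43173001 to 43178000), and held the promoter printed above. LmnB1_16 replicate 2 had 158 H3K9me3 reads over 36 input reads there (2.26 times the list ratio) and LmnB1_6 replicate 1 had 121 over 25 (2.69 times). mCherry_3 replicate 1 had 112 over 36 (2.05 times) and replicate 2 had 90 over 30 (2.00 times). LmnB1_16 replicate 1 listed a 6 kb domain with 191 over 44 (2.24 times), 1 kb too long for the rule. All 5 lists that held the place thus stood between 2.00 and 2.69 times, with 95% intervals that overlapped, and LmnB1_6 replicate 2 and both mCherry_4 replicates had no domain.

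The other locus focal in 4 libraries was 1 kb on the short arm of chromosome 21 (8411001 to 8412000), 8.66 kb from the ribosomal RNA gene RNA45SN3. It held 46 and 48 H3K9me3 reads in LmnB1_6 replicates 1 and 2, against 55 in mCherry_3 replicate 2 and 69 in mCherry_4 replicate 1, each over 10 input reads. The relative ratios were 2.55 and 3.25 in the LmnB1 lists and 3.67 and 9.06 in the mCherry lists, the last with a 95% interval of 4.64 to 19.7. Ribosomal RNA arrays are multicopy, so the placement of these reads is uncertain.

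Among the loci focal in 3 libraries, that in TANC1, a synaptic scaffold gene (chromosome 2, 159013001 to 159017000), was focal in LmnB1 lists alone. It held 131 H3K9me3 reads over 24 input reads in LmnB1_16 replicate 1, 107 over 17 in replicate 2 and 86 over 17 in LmnB1_6 replicate 1, which were 2.82, 3.23 and 2.81 times the list ratio. In mCherry_4 replicate 2 the same place was part of a 12 kb domain at 1.13 times, and the other 4 lists had none. The locus near DBNDD2 (chromosome 20, 45398001 to 45402000) likewise was focal in both LmnB1_16 replicates and LmnB1_6 replicate 1, at 2.27, 2.44 and 2.09 times, and was in no mCherry list. Both were chosen by how often they were focal, so these values are a description.

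The locus in SHANK2, a postsynaptic scaffold gene (chromosome 11, 70510001 to 70516000), was focal at 2.79 times the list ratio in LmnB1_16 replicate 2 and at 2.73 and 2.70 times in mCherry_3 replicates 1 and 2. That in GPR55, a lipid receptor gene (chromosome 2, 230935001 to 230940000), was listed in 7 libraries. It was at 2.47 and 1.92 times in LmnB1_16 and 2.68 and 1.71 times in LmnB1_6, against 2.77 and 2.44 times in mCherry_3 and 1.92 times in mCherry_4 replicate 1. The 95% intervals of all 7 overlapped. The locus in RNF212, a meiotic recombination gene (chromosome 4, 1085001 to 1091000), was focal at 2.99 times in LmnB1_16 replicate 1 and at 2.33 and 2.23 times in mCherry_3. In LmnB1_16 replicate 1 it was a 2 kb domain that covered 33.3% of the merged locus.

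Of the other loci focal in 3 libraries, one lay 259 kb from NR5A2, a nuclear receptor gene (chromosome 1, 199764001 to 199769000), and one in LOC124900586 (chromosome 16, 834001 to 839000). The first was focal at 2.70 and 2.37 times the list ratio in LmnB1_16 replicate 1 and LmnB1_6 replicate 2, and at 2.79 times in mCherry_3 replicate 1. In mCherry_3 replicate 2 it was part of a 21 kb domain at 0.98 times. The second was focal at 2.06 and 2.11 times in LmnB1_16 and at 2.73 times in mCherry_3 replicate 1, with a 24 kb domain at 1.17 times in mCherry_3 replicate 2. At both places the mCherry_3 replicates thus listed a short domain of high ratio and a long domain near the ratio of the list.

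Next in order came loci focal in 2 libraries with the highest mean ratio. That in BCAS3 (chromosome 17, 60914001 to 60918000) was at 2.82 times in LmnB1_16 replicate 1 and 2.96 times in LmnB1_6 replicate 1 and in no other list. That near CNTROB, a centriole gene (chromosome 17, 7974001 to 7977000), was focal at 2.46 times in LmnB1_6 replicate 1 and 3.10 times in mCherry_3 replicate 1. That in RAPGEF4, which encodes a cyclic AMP sensor (chromosome 2, 172802001 to 172805000), was focal at 2.51 and 3.01 times in LmnB1_16 replicate 1 and LmnB1_6 replicate 1, and was listed at 1.51 times in mCherry_3 replicate 2.

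**Figure D5:**
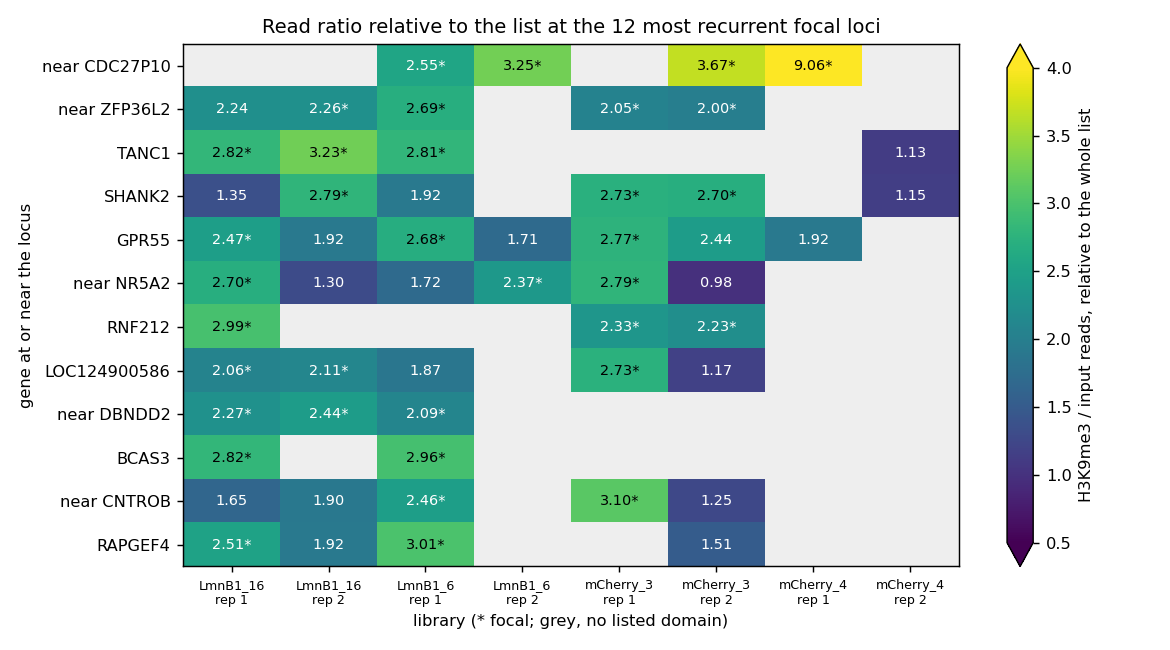
Colour and number give the relative ratio (H3K9me3 over input reads, divided by the pooled ratio of the list) at the 12 loci focal in the most libraries (rows) in each library (columns, LmnB1 left and mCherry right). An asterisk marks a focal domain and grey no listed domain; values without an asterisk come from a domain that is longer than 5 kb or below 2 times, and the colour scale is cut at 4, so the 9.06 of mCherry_4 replicate 1 on chromosome 21 (row near CDC27P10, a pseudogene) lies above it.

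On the mCherry side, the largest differences in listing were small. The locus near CLCA4, a chloride channel regulator gene (chromosome 1, 86611001 to 86614000), was focal in mCherry_3 replicate 1 with 67 H3K9me3 reads over 21 input reads, lay in an 11 kb domain in replicate 2 and was in no other list. Another (chromosome 17, 25186001 to 25187000), 2107 kb from the nearest protein-coding gene, held 81 over 19 in mCherry_4 replicate 1 (5.60 times the list ratio, 95% interval 3.37 to 9.78) and 41 over 19 in mCherry_3 replicate 2 (1.44 times). Close by, mCherry_4 replicate 1 had domains from 24813001 to 24815000 (249 over 85, 3.85 times) and from 24823001 to 24825000 (185 over 64, 3.8 times). These 3 and the domain on chromosome 21 were the 4 whose lower limit was 2 or more, all of them in mCherry_4 replicate 1, the library with the lowest depth and the lowest pooled ratio. The chromosome 17 domains lie in a pericentromeric stretch without annotated genes, where repeated sequence makes placement uncertain.

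Focal domains were spread over all 22 autosomes. Chromosome 4 held 47 of 336 (14.0%), against 10.5% of other short domains, and chromosome 10 held 2 (0.595% against 3.51%). Chromosome 17 held 21 (6.25% against 3.23%), of which 5 came from the 11 of mCherry_4 replicate 1. Chromosome 19, which carries the large zinc finger gene clusters, held 14 (4.17% against 2.18%), and 0 of these touched a zinc finger gene. Chromosomes 17 and 19 did not stand alone, since chromosome 15 (4.76% against 2.66%) and chromosome 16 (3.87% against 2.16%) were likewise higher. Chromosome 3 (5.36% against 8.75%) and chromosome 6 (3.87% against 6.45%) were lower. In LmnB1 libraries chromosome 4 held 15% and 11.9% of focal domains in LmnB1_16 and 22.0% and 0% in LmnB1_6, against 5.41% and 18.8% in mCherry_3 and 0% in both mCherry_4 replicates. These shares varied between libraries and were not tested.

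Focal domains stood well apart from the next domain, as other short ones did. The median gap to the next domain of the same list was 62 and 100 kb in LmnB1_16 and 65 and 224 kb in LmnB1_6, against 67 and 119.5 kb in mCherry_3 and 137 and 1218.5 kb in mCherry_4. For other short domains it was 61, 105, 95.5 and 477 kb in the same LmnB1 lists and 123, 127.5, 204 and 438 kb in the mCherry lists. The focal median was the smaller one in 6 libraries and the larger one in LmnB1_16 replicate 1, by 1 kb, and in mCherry_4 replicate 2, which had 4 focal domains. A domain over 10 kb was 307 to 780 kb away in the median with LmnB1 and 232.5 to 2627 kb away with mCherry. Of the 336, 13 lay over 1 Mb from any protein-coding gene, 10 of them in LmnB1 lists and 3 in mCherry_4 replicate 1. That was 3.87% of focal domains, against 3.5% of other short domains, and 18.7% of the other short domains of mCherry_4 replicate 1 lay as far.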

How the data were processed

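Cut&Run for H3K9me3 was done with EpiCypher CUTANA reagents and NEBNext Ultra II libraries, per the labels' protocols. Tools listed in the submitters' processing notes, with no roles, are deepTools, SICER, DESeq2 and DiffBind 3.0.15, and the builds listed are hg38 and GRCh38. No aligner is named in the sources used here. Each deposited list holds the domains of 1 library, with the authors' counts of H3K9me3 and input reads, p-value, adjusted p-value, log2 enrichment and a score of 100 times that log2 value. The lists hold no counts outside their own domains, so no count model was run, and the p-values and scores were not used to choose domains.

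The ratio of both counts was divided by the pooled ratio of the list, and domains were selected as the report states. Intervals are Clopper-Pearson at 95% for counting error, and the limit for a count of 0 is 3 counts of the total. Gene positions came from a RefSeq table of 20056 protein-coding genes on GRCh38.p14, of which 15843 had a strand, as did 479 of 571 zinc finger genes. A locus was listed at 50% or more covered and not listed at 10% or less. In the counts of loci by list and of domains between replicates, any touching domain counted as listed. Constructs were compared by exact permutation over 70 assignments. Focal and other short domains were compared by exact sign flips of the 8 within-library differences (256 flips, smallest p 0.00781). Both had Benjamini-Hochberg adjustment over 4 values at a threshold of 0.05. Biological replicates of a clone may share more than replicates of different clones.

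Named loci were the 12 focal in the most libraries (ties by mean relative ratio), those on zinc finger genes, the 4 with the largest difference in listing in each direction, and those in 3 gene lists. One locus outside this rule is not reported here. The members, gene lists and tests were chosen with earlier results of these data known. Alternatives changed length, input and ratio limits, left out each library, used clone means and moved gene limits. A log2 limit of 2, the removal of short domains far from genes, and the mCherry_3 replicates as 1 sample were chosen after seeing the data. The scripts were tested on simulated data. The software was scipy 1.17.1, pandas 2.3.3, numpy 2.4.6 and matplotlib 3.10.9 on Python 3.11.15.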

Additional observations from a re-analysis of the deposited data

Results flagged for a closer look

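Of 12 values checked within the 4 libraries of a construct, 2 had 1 library far from the other 3, a gap that chance gives in about 1 in 20 groups. The percent of focal domains on zinc finger genes was 1.43% in LmnB1_16 replicate 1 and 0% in the other 3 LmnB1 libraries. It rests on 2 domains of 140, in ZNF609 and over the 3′ end of ZSCAN2. The percent of focal domains over a gene end was 5.41% in mCherry_3 replicate 1 and 0% in the other 3 mCherry libraries. It rests on 2 domains of 37, at MSI1 and ATP8B3. In both cases the other 3 libraries stood at 0%, so a single domain in 1 library would also have been picked out.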

How the results depend on the processing

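Counts of focal domains moved with the limits of the rule: 191 at up to 3 kb, 430 at up to 10 kb, 197 with at least 20 input reads, 74 with at least 30, 1894 at 1.5 times the list ratio, and 14 at 3 times. There were 337 relative to the median domain and still 336 at an adjusted p of at most 1e-05. The difference in number between constructs, LmnB1 minus mCherry, turned to -0.5 at 3 times and ran from 16.3 to 62 with 1 library left out. The difference in share of short domains kept its sign throughout, from -6.88 to -0.413 points. The difference in gene ends between constructs was near 0 and turned to -0.492 points at up to 3 kb, -0.0974 with at least 20 input reads, -3.31 within 2 kb of an end and -0.498 at a log2 enrichment of at least 2, and ran from -0.637 to 1.38 with 1 library left out. That in zinc finger genes turned to -0.0128 points at 1.5 times. Focal minus other short domains at gene ends turned to 0.0664 points at up to 3 kb, 3.05 with at least 30 input reads and 0.111 at log2 of at least 2. On zinc finger genes it turned to 0.286 points with at least 30 input reads, which left 6 libraries. The number of other lists holding a domain turned to 0.0438 at up to 10 kb, 0.503 and 1.03 with at least 20 and 30 input reads, 0.471 at 1.5 times, 0.00749 relative to the median domain and 0.304 without short domains over 500 kb from a protein-coding gene, and ran from -0.0960 to 0.120 with 1 library left out. The cause was not tested, and none of these but the value at 1.5 times passed.

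Loci listed with LmnB1 and not with mCherry numbered 1 at up to 3 kb, 18 at 1.5 times, 0 at 3 times and 5 at log2 of at least 2, and 2 to 37 with 1 library left out, the highest without LmnB1_6 replicate 2. The reverse was 0 in every setting. Loci listed in all 8 libraries numbered 0 at up to 3 kb, 16 at up to 10 kb, 27 at 1.5 times, 0 at 3 times and 3 at log2 of at least 2, and 3 (without mCherry_4 replicate 1) to 11 (without mCherry_4 replicate 2). Correlations between same-numbered replicates of different clones ran from -0.284 (LmnB1_16 with LmnB1_6) to 0.0230 over 4881 loci. They cannot tell whether the replicate numbers mark a shared batch. In each clone replicate 1 held more focal domains than replicate 2. With a replicate block the differences were 42 domains (exact permutation p = 0.222), -3.68 points of share (p = 0.167), and 0.357 and 0.0318 points (p = 1 each), and no call changed. With the mCherry_3 replicates as 1 sample the differences were 46.5 domains, -3.71 points of share, 0.482 points at gene ends and 0.357 points on zinc finger genes (exact permutation p of 0.229, 0.2, 0.83 and 1), and no call changed. Small input counts limit every single ratio, and list lengths limit what 3, 4 or 11 focal domains can show.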
